A study of Mus musculus with 6 samples.

Results

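The microRNAs described here are the members of the mouse miR-297, miR-466, miR-467 and miR-669 families that the authors' deposited table names as mature microRNAs, with any letter, copy number or arm. There were 30 of them among the 2380 small RNAs of that table: 1 of miR-297, 15 of miR-466, 5 of miR-467 and 9 of miR-669. By name, 11 came from the 5p arm of their hairpin, 12 from the 3p arm, and 7 carried no arm. They were chosen by name and not by any measured value.

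The samples were 3 of hippocampus from wild-type mice (WT) and 3 from PS19 mice, a line transgenic for human P301S Tau. Within each genotype they are numbered 1 to 3, and values are given in that order. As background, the PS19 transgene is driven by the mouse prion protein promoter, so it is active in neurons of the brain and spinal cord and not in the hippocampus alone. The labels give neither the age of the animals nor the number of animals in a sample. The homogenised tissue was crosslinked with UV light, and Tau was then pulled down with a pS396 antibody, which recognises Tau phosphorylated at a serine near its C-terminal end. Each array compared RNA of the pull-down (CLIP, crosslinking and immunoprecipitation), labelled with Cy5, with RNA left in the supernatant of the same sample, labelled with Cy3.

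MicroRNAs are short RNAs cut from either arm of a hairpin, and they guide Argonaute proteins to messenger RNAs through their seed, which is bases 2 to 8. The families described here are found in rodents, where most of their genes lie as a tandemly repeated cluster in an intron of Sfmbt2, a Polycomb group gene that is imprinted in the mouse placenta; loss of that cluster impairs placental growth in mice. Their hairpins contain runs of alternating C and A on one arm that pair with alternating U and G on the other, so that many mature members resemble simple repeats and each other.

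In the RefSeq annotation of the mouse assembly GRCm38.p6, 20 of the 30 members had every gene copy inside Sfmbt2 on chromosome 2. A further 3 had some copies there: miR-297a-5p, which also has a copy on chromosome 7, and miR-466f-3p and miR-466f, which also have a copy on chromosome 13. The other 7 had no copy there, and their genes lay on chromosomes 3, 9, 11 and 13. All 72 microRNA genes that the annotation places inside Sfmbt2 belonged to these families. Copy number varied, with 12 copies behind miR-669a-3p and 8 behind miR-466b-3p, and 1 behind each of 23 members.

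RefSeq mature sequences were matched for 6 of the 30 members, all from single genes outside Sfmbt2. They are shown because they carry the repeats typical of these families and because their pull-down values are described further on by repeat. The seed is in capitals and each sequence is written from 5′ to 3′.
miR-466i-3p: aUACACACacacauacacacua
miR-467f: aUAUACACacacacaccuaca
miR-466q: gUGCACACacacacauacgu
miR-466k: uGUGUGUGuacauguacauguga
miR-467h: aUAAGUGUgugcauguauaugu
miR-669n: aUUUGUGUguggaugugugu

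In GRCm38.p6 these lie at chr13:17747552-17747573 (miR-466i-3p), chr11:69635419-69635439 on the minus strand (miR-467f), chr3:28419988-28420007 (miR-466q), chr3:85467396-85467418 (miR-466k), chr9:115381898-115381919 (miR-467h) and chr3:115979905-115979924 (miR-669n), on the plus strand except where stated. No seed was shared between any of them. The first 3 hold CACACA and the last 3 hold GUGUGU, the same dinucleotide repeat as read from the opposite strand. Both motifs were searched on the mature strand only and were chosen after the values had been seen. Across the 1679 mature microRNAs of the RefSeq table CACACA occurred in 0.715% and GUGUGU in 1.01%. In their best alignment without gaps the members with CACACA were identical at 70.0% to 76.2% of the bases of the shorter sequence, and those with GUGUGU at 65.0% to 77.3%. Whether an array probe for one such sequence also binds another was not tested, so near-identical members cannot be told apart with certainty.

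All 30 members were well above background in the CLIP channel on at least 3 of the 6 arrays, as were all 1103 other mature microRNAs of the table. On all 6 arrays 9 members were well above background in the CLIP channel and 19 in the supernatant channel. No member was below background on every array of a genotype in either channel. WT 2 and PS19 1 were read in a shared scan, PS19 2 and PS19 3 in another, and WT 1 and WT 3 in scans of their own. Scanner voltages for the CLIP and supernatant channels were 386 and 304 on WT 1, 421 and 288 on WT 3. They were 420 and 355 on WT 2 and the PS19 arrays. The part of the voltages in the differences between genotypes was not tested. CLIP levels over the tested RNAs correlated at 0.953 to 0.974 between arrays of a scan and at 0.644 to 0.822 between scans. The p-values given here therefore set differences against the spread between these samples and their scans. For the CLIP level that spread was pooled over RNAs and was not a member's own. Neuronal microRNAs served to check the tissue: 4 of the 6 listed were on the table, and miR-124-3p, a microRNA abundant in neurons, was well above background on all arrays in both channels. None of the listed oligodendrocyte, microglial, blood, choroid plexus and endothelial microRNAs was found on the table by the names searched. The check therefore did not cover these cell types.

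The pull-down ratio is the log2 of CLIP over supernatant signal, centred on the median RNA of each array. On WT 2, WT 3 and PS19 1 the sequenced members with CACACA lay below those with GUGUGU, on PS19 3 they lay below them but close to miR-669n, and on WT 1 and PS19 2 the values of both kinds were mixed. For miR-466i-3p the ratio was 1.06, -1.48 and -1.05 in WT and -2.39, 0.32 and 0.00 in PS19. For miR-467f it was 1.11, -1.44 and -1.02 in WT and -2.46, 0.62 and -0.01 in PS19. For miR-466q it was 0.81, -1.56 and -1.23 in WT and -2.29, 0.62 and 0.06 in PS19. These 3 members with CACACA were lowest on PS19 1 and next lowest on WT 2, the arrays of the shared scan, and highest on WT 1, and no pair of them differed by more than 0.31 on any array. The genotypes overlapped for each of them.

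The members with GUGUGU lay further apart from each other. For miR-466k the ratio was 0.22, 0.44 and -0.24 in WT and -0.33, 1.37 and 0.96 in PS19. For miR-467h it was 0.38, 0.23 and -0.31 in WT and -0.65, 0.08 and 0.52 in PS19. For miR-669n it was 0.98, -0.23 and 0.37 in WT and -1.09, 0.45 and 0.10 in PS19. All 3 were lowest on PS19 1, like the members with CACACA, but 2 of the 3 had WT 3 and not WT 2 as the next lowest, and the range over the 6 arrays was 1.17 to 2.07 against 3.09 to 3.57. The genotypes overlapped for each of these as well. For miR-669n, as for the members with CACACA, WT 2 and PS19 1 lay below all other arrays. The members with CACACA were well above background in the CLIP channel on all 3 WT and all 3 PS19 arrays. Those with GUGUGU were so on 1 WT array each, with mean WT CLIP levels of -6.38 to -5.01 against -3.26 to -2.19. Repeat and signal thus went together in these 6 members. The division by repeat was seen in the data, and neither it nor the part of signal near background was tested.

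**Figure D1:**
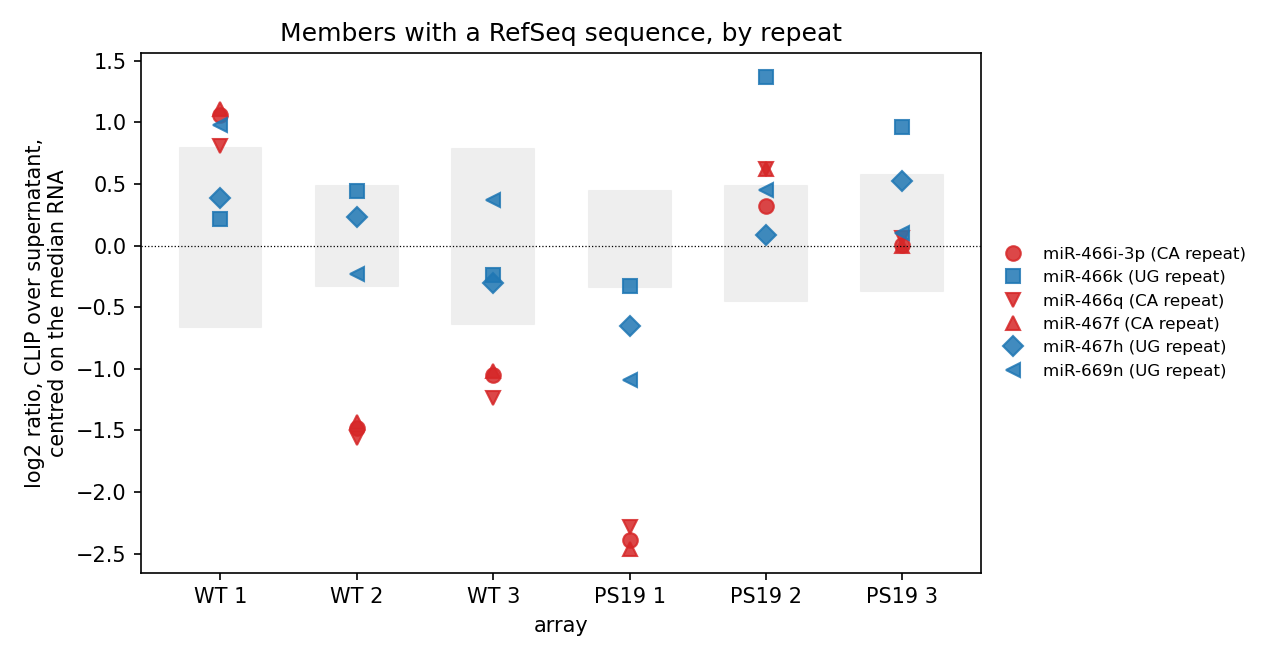
Points show the centred log2 ratio of CLIP over supernatant for the 6 members with a RefSeq sequence on each array (x axis), with members that hold CACACA in red and members that hold GUGUGU in blue. Grey boxes span the 10th to 90th percentile of the other mature microRNAs. The red points lie together on every array, and on PS19 1 they lie between -2.46 and -2.29 and the blue points between -1.09 and -0.33, while on WT 1 and PS19 2 red and blue points are mixed.

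The same course over the arrays was found in members without a printed sequence. For miR-466f-3p the ratio was 1.07, -1.31 and -1.1 in WT and -2.57, 0.44 and 0.05 in PS19. For miR-669p-3p it was 1.13, -1.48 and -1.01 in WT and -2.43, 0.63 and 0.02 in PS19. Together with miR-669c-3p, miR-466h-3p, miR-466i-3p, miR-467f and miR-466q these made 7 members that moved nearly in step, picked after their values had been seen. Over the 7 the ratio lay between 0.76 and 1.13 on WT 1, between -1.57 and -1.31 on WT 2 and between -1.23 and -1.01 on WT 3. In PS19 it lay between -2.57 and -2.21 on PS19 1, between 0.32 and 0.63 on PS19 2, and between -0.10 and 0.06 on PS19 3. The 7 come from 3 of the 4 number families, and their genes lie both inside Sfmbt2 and on chromosomes 3, 11 and 13.

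Over all 30 members the median ratio was 0.39, -0.33 and -0.53 in the WT samples. It was -1.16, 0.44 and 0.02 in the PS19 samples. Over the other mature microRNAs the median stayed between -0.09 and 0.10 on all arrays. The members thus departed from other microRNAs within each genotype and in both directions, below them on WT 2, WT 3 and PS19 1 and above them on WT 1 and PS19 2. In the CLIP channel 10 of 30 members were well above background on WT 1, 29 on WT 2 and 17 on WT 3. In PS19 the counts were 28, 26 and 29. Of the other mature microRNAs 29.7% were so on WT 1 and 69.8% on WT 3. Many ratios on WT 1 and WT 3 thus rest on CLIP signal near background.

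The ratio was lowest on PS19 1 for 22 of the 30 members, against 11.3% of the 1008 other mature microRNAs with a value on every array. WT 2 and PS19 1 lay below all other arrays for 14 of 30 members, against 101 of those 1008. The range over the arrays exceeded 2 log2 units for 17 of 30 members, against 9.52% of the others. Of the 10 members with a ratio under -2 on PS19 1, 7 were 3p arms, 2 had no arm in their name (miR-467f and miR-466q) and 1 was a 5p arm, miR-466c-5p at -2.18. These counts are descriptions, since members of similar sequence are not independent and the pattern was chosen after it was seen.

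Some members did not take part. For miR-467c-5p the ratio was 0.14, 0.19 and -0.06 in WT and -0.24, 0.17 and -0.23 in PS19, a range of 0.43. For miR-467e-5p the range was 0.45, for miR-466b-3p 0.48 and for miR-466n-3p 0.82, and these 4 members were the ones whose range stayed under 1. The ratios of the 3p arms were therefore not alike: miR-466b-3p ran between -0.43 and 0.05, while miR-466f-3p, of the same number family, ran between -2.57 and 1.07. In the CLIP channel miR-466b-3p and miR-467e-5p were well above background on 1 WT array, and miR-467c-5p and miR-466n-3p on 2. The 7 members in step were well above background on all arrays in both channels. Whether signal near background narrowed the small ranges was not tested.

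**Figure D2:**
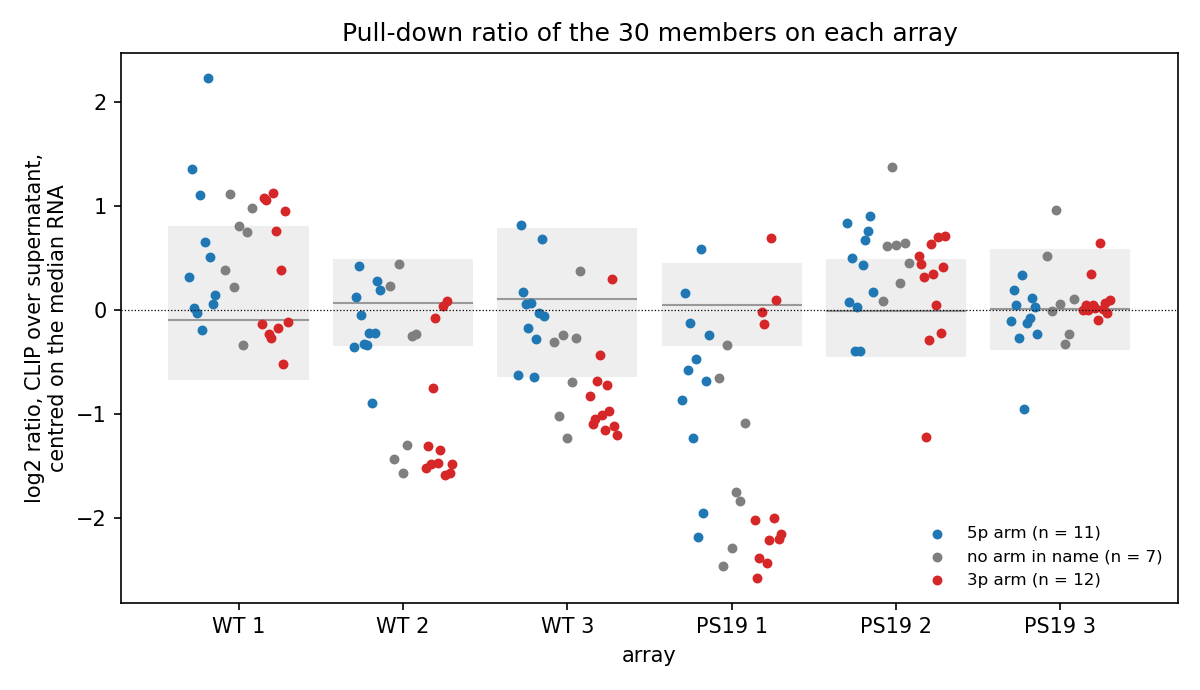
Each point is the centred log2 ratio of CLIP over supernatant (y axis) of a member on an array (x axis), coloured by arm, beside grey boxes for the 10th to 90th percentile and a grey line for the median of the other mature microRNAs. On PS19 1 and WT 2 most 3p members lie below the grey boxes, while on PS19 3 the member median of 0.02 is close to that of the others.

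Whether the pull-down ratio differed between the genotypes was tested with limma across 3971 RNAs. At an adjusted p under 0.05 no RNA passed (0%). At an unadjusted p under 0.05, 2.09% of RNAs were higher and 2.04% lower, none of them a member. The median difference of PS19 minus WT over the 30 members was -0.13, with 12 higher and 18 lower, and that over the other mature microRNAs was -0.02. That sign turned when arrays were left out: the members' median was 0.29 without PS19 1 and 0.40 without WT 1, and -0.46 without PS19 2. It was also 0.09 without centring and 0.08 after normexp background correction. The other mature microRNAs then had medians of 0.20 and 0.12, so the members stayed below them in both.

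The groups did not overlap for 1 member that was higher in PS19 and 2 that were lower. Of 3842 RNAs with complete values, 4.24% were higher and 4.48% lower without overlap. The member that was higher was miR-466o-3p, with ratios of -0.17, 0.03 and -0.72 in WT and 0.70, 0.05 and 0.65 in PS19. Its difference was 0.75 ± 0.36 (SE, n = 3 per genotype), with an adjusted p of 0.993 in limma. All 3 PS19 samples were above all WT samples, but PS19 2 lay next to WT 2, and the difference did not pass the test.

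The 2 members that were lower were 5p arms. For miR-466h-5p, a microRNA known to promote apoptosis in cultured rodent cells, the ratio was -0.19, -0.34 and 0.07 in WT and -0.47, -0.40 and -0.95 in PS19. The difference was -0.45 ± 0.32 (SE), with an adjusted p of 0.993 in limma. This microRNA, read by 1 probe, was well above background on only 1 WT array in each channel. For miR-467e-5p the ratio was -0.03, -0.05 and 0.05 in WT and -0.12, -0.39 and -0.27 in PS19, a difference of -0.25 ± 0.28 (SE) with the same adjusted p.

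The other members with the smallest p in either direction overlapped between genotypes. For miR-466k the difference was 0.53 ± 0.49 (SE), for miR-669f-3p 0.48 ± 0.76, for miR-669h-5p -0.62 ± 0.38 and for miR-669n -0.55 ± 0.51, each with an adjusted p of 0.993 in limma. For miR-669h-5p the ratio was 1.35, 0.12 and 0.81 in WT and 0.17, 0.08 and 0.19 in PS19, so the WT samples were widely spread and the PS19 samples close together. Within the shared scan, PS19 1 minus WT 2, the difference was 0.04 for miR-669h-5p, -0.78 for miR-466k and -0.67 for miR-669f-3p, the opposite sign for all 3.

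Which members lay above or below the median RNA in the pull-down was read from each genotype's mean ratio. No member passed in either genotype at an adjusted p under 0.05 in limma, where 0.0755% of RNAs passed as higher in WT and 0.101% in PS19, and 0% as lower in either. At an unadjusted p under 0.05, 1 member was above 0 in WT (miR-669h-5p) and 1 below 0 in PS19 (miR-466h-5p), beside 4.38% of RNAs above 0 and 3.65% below in WT, and 3.17% above and 3.83% below in PS19. In WT 19 of 30 members lay below 0 with a median of -0.19, and in PS19 25 of 30 with a median of -0.33. PS19 1 decided that count: without it 23 of the 30 lay above 0 and the median was 0.25. In WT 22 members lay below 0 without WT 1, and 15 without WT 2.

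In WT the mean ratio of miR-669h-5p was 0.76 ± 0.61 (SD, n = 3), with an adjusted p of 0.564 in limma. The next smallest p in limma above 0 belonged to miR-669n at 0.37 ± 0.61 (SD) and miR-669o-5p at 0.34 ± 0.32. Below 0 the smallest p belonged to miR-669f-3p at -0.93 ± 0.72, miR-466g at -0.77 ± 0.49 and miR-466e-3p at -0.56 ± 0.28. Each of these 3 was negative on all WT arrays.

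In PS19 miR-466h-5p had a mean ratio of -0.61 ± 0.30 (SD, n = 3) and an adjusted p of 0.634 in limma, and it was negative on all 3 arrays. The next smallest p below 0 belonged to miR-466g at -0.60 ± 1.03 (SD) and miR-467e-5p at -0.26 ± 0.14. Above 0 the smallest p belonged to miR-466k at 0.67 ± 0.89, miR-466o-3p at 0.46 ± 0.36 and miR-467d-5p at 0.39 ± 0.41. Of these 3 only miR-466o-3p was positive on all 3 PS19 arrays.

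The supernatant level, which shows the RNA that the antibody did not pull down, separated the members by arm. Levels are log2 signals set to 0 at the 75th percentile of RNAs well above background on all arrays of that channel, and differences between genotypes are given relative to the median tested RNA, which was 0.10 higher in PS19. All 11 of the 5p members were higher in PS19 than in WT, with a median difference of 0.52, and all 12 of the 3p members were lower, with a median of -0.40. The other mature microRNAs did not divide in this way: 56.1% of 526 with a 5p name and 65.1% of 321 with a 3p name were higher.

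No member and no other RNA passed in the supernatant at an adjusted p under 0.05 in limma (0% of 3727 RNAs), and 1 member, miR-466h-5p, was higher at an unadjusted p under 0.05, where 1.74% of RNAs were higher and 1.05% lower. The arm counts, here and in the CLIP level, are descriptions, since members of similar sequence are not independent. The supernatant counts also depended on single arrays. Without WT 2, or without PS19 2, 6 of the 12 3p members were lower, with a median of 0.01 or 0.00. Without WT 3, or without PS19 1, 8 of the 11 5p members were higher. Within the shared scan 10 of 11 5p members were higher and 12 of 12 3p members lower. Because the tissue was measured in bulk, fewer cells of a type and less RNA per cell cannot be told apart.

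For miR-466h-5p the supernatant level was -3.62, -2.99 and -4.05 in WT and -2.81, -2.32 and -2.63 in PS19. All PS19 samples were above all WT samples. This microRNA was read by 1 probe and was well above background in the supernatant on only 1 WT array, so its WT values lie near background. The difference was 0.87 relative to the median RNA, with an SE of 0.37 and an adjusted p of 0.928 in limma. SE and p here come from the fit before the median was taken off. The higher supernatant level and the lower pull-down ratio of this microRNA are not independent, since the supernatant signal enters both.

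In 3 members, all 3p arms of miR-466, every PS19 sample was lower than every WT sample, and in 1 member, miR-466h-5p, every sample was higher. Of 3668 RNAs 2.43% were lower and 7.42% higher without overlap. For miR-466e-3p the level was -2.80, -2.34 and -2.64 in WT and -2.85, -3.81 and -3.15 in PS19, a relative difference of -0.77 with an SE of 0.36. For miR-466o-3p it was -2.67, -2.84 and -2.86 in WT and -3.35, -2.96 and -3.40 in PS19, a relative difference of -0.54 with an SE of 0.28. For miR-466b-3p it was -2.62, -2.71 and -2.61 in WT and -2.94, -3.01 and -2.95 in PS19, a relative difference of -0.42 with an SE of 0.26. The adjusted p was 0.928 in limma for each of the 3, and for miR-466b-3p the samples of each genotype lay closest together. In the supernatant miR-466e-3p, read by 1 probe, was well above background on only 1 PS19 array, and miR-466o-3p on 2.

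The remaining members with the smallest p overlapped. For miR-669c-5p the relative difference was 0.79 with an SE of 0.59, for miR-669n 0.66 with an SE of 0.52 and for miR-466m-3p -1.25 with an SE of 0.82. The adjusted p was 0.928 in limma for each. The level of miR-466m-3p was -2.71, -0.55 and -1.40 in WT and -1.75, -4.20 and -2.17 in PS19, so that PS19 2 alone lay below all WT samples.

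Among the members that moved in step in the ratio, 3 are given here for the supernatant. For miR-466i-3p the supernatant level was -0.97, 2.09 and 0.72 in WT and 0.94, -0.76 and 0.80 in PS19. For miR-467f it was -0.39, 2.47 and 1.09 in WT and 1.5, -0.18 and 1.31 in PS19. For miR-669c-3p it was -0.58, 2.18 and 1.07 in WT and 1.1, -0.31 and 1.26 in PS19. Each was highest on WT 2, the array with the next to lowest pull-down ratio, and lowest on WT 1, the array with the highest ratio. The genotypes overlapped for each of them.

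For miR-466i-5p, from the opposite arm of the miR-466i hairpin, the supernatant level was 1.33, 2.85 and -0.45 in WT and 3.63, 0.27 and 1.97 in PS19. It was highest on PS19 1 and lowest on WT 3. The relative difference was 0.61 with an SE of 1.1, against -0.39 with an SE of 0.86 for miR-466i-3p, so the arms of this hairpin had opposite signs within their error. The adjusted p in limma was 0.928 and 0.957. The levels of miR-669a-3p were -2.37, 0.10 and -1.20 in WT and -1.05, -2.81 and -0.95 in PS19, a relative difference of -0.54 with an SE of 0.78.

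**Figure D3:**
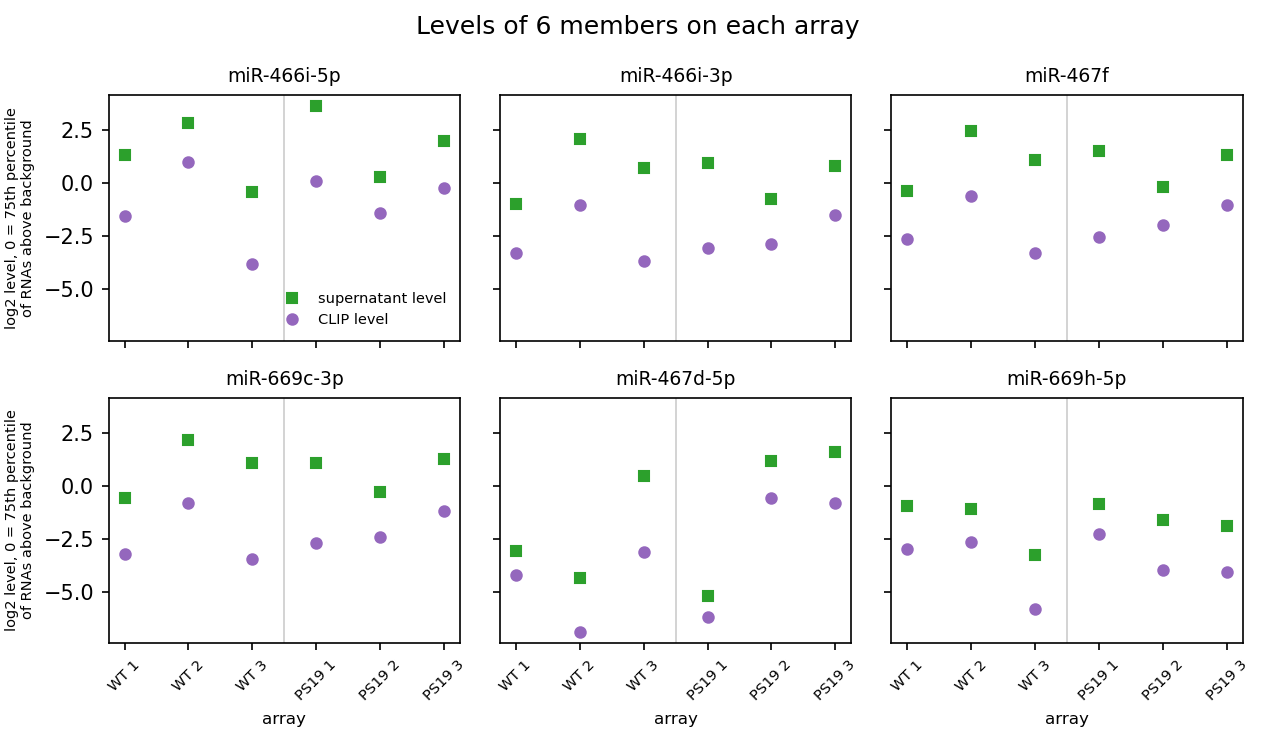
Squares give the supernatant level and circles the CLIP level (log2, each channel set to 0 at its own 75th percentile of RNAs above background) of 6 members on each array, with WT to the left and PS19 to the right of the grey line. The supernatant levels of miR-466i-3p, miR-467f and miR-669c-3p share 1 course with a maximum on WT 2, while miR-467d-5p is lowest on WT 2 and PS19 1 in both channels.

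The CLIP level itself, the measure that the authors compared, was divided by arm in the same direction with more exceptions, and its 5p median was smaller. Relative to the median tested RNA, which was 0.85 higher in PS19, 9 of 11 5p members were higher in PS19 with a median of 0.14, and 11 of 12 3p members were lower with a median of -0.41. Among the other mature microRNAs 46.1% of 534 with a 5p name and 60.8% of 342 with a 3p name were higher. Over all 30 members 14 were higher and 16 lower, with a median of -0.20 against 0.01 for the other mature microRNAs. The shift of the median RNA ran from -0.03 with the 75th percentile over all RNAs to 1.17 with no scaling. It was -0.10 after normexp background correction and 1.51 without WT 2.

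No member and no other RNA passed in the CLIP level at an adjusted p under 0.05 in limma (0% of 2356 RNAs). At an unadjusted p under 0.05, 1 member was higher, miR-467d-5p, where 1.91% of RNAs were higher and 0.255% lower. The genotypes overlapped for all 30 members, while of 2238 RNAs with complete values 4.42% were higher and 0.268% lower without overlap. The SE of every difference was 1.04, because the fit pooled the variance over RNAs. As in the supernatant, SE and p come from the fit before the median was taken off. Within the shared scan 3 of 11 5p members were higher, with a median of -0.20, and 10 of 12 3p members lower. Without WT 3, 5 of 11 5p members were higher, with a median of -0.14. Without PS19 1, 6 of 12 3p members were lower, with a median of 0.01, and after normexp background correction 4 of 11 5p members were higher and 7 of 12 3p members lower.

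For miR-467d-5p the CLIP level was -4.21, -6.91 and -3.15 in WT and -6.21, -0.60 and -0.79 in PS19. Its supernatant level was -3.06, -4.35 and 0.49 in WT and -5.19, 1.18 and 1.62 in PS19. Both channels were lowest on the arrays of the shared scan and highest on PS19 2 and PS19 3, the other arrays that shared a scan. The relative CLIP difference was 1.37, and it was -0.36 without WT 2. Before the median was taken off, the difference was 2.22 with the pooled SE of 1.04. That difference had an unadjusted p of 0.032 and an adjusted p of 0.773 in limma. The SD of this member was 1.94 in WT and 3.19 in PS19. The neuronal miR-124-3p was also lowest on WT 2 and PS19 1 in both channels, with CLIP levels of -3.90, -6.24 and -3.80 in WT and -4.98, -3.22 and -3.65 in PS19. Its supernatant levels were -2.70, -3.20 and -0.999 in WT and -3.37, -1.33 and -0.78 in PS19. Other neuronal microRNAs took the opposite course in the CLIP level. For miR-9-3p it was -6.01, -4.30 and -7.81 in WT and -4.09, -4.83 and -5.11 in PS19, and for miR-138-5p -4.06, -3.40 and -8.09 in WT and -2.83, -4.67 and -4.50 in PS19, so both were highest on WT 2 and PS19 1. For miR-9-5p it was -6.83, -7.20 and -3.77 in WT and -6.36, -5.06 and -5.27 in PS19. Summed over the 4 neuronal microRNAs the supernatant level ran from -0.96 to -0.70 in WT and from -0.97 to -0.13 in PS19, and the CLIP level from -2.73 to -2.59 in WT and from -2.49 to -2.04 in PS19. All 4 were well above background on at least 2 arrays in each channel, miR-9-5p had no supernatant value on WT 3, and their part in the result was not tested.

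For miR-297a-5p the CLIP level was -6.98, -4.93 and -8.16 in WT and -4.93, -5.08 and -5.67 in PS19, a relative difference of 0.62. For miR-669f-5p it was -6.68, -4.16 and -8.04 in WT and -4.69, -5.60 and -5.01 in PS19, a relative difference of 0.35. In both the PS19 samples lay close together and WT 3 was far below them, and both differences were negative within the shared scan, at -0.12 and -0.66. Each was well above background in the CLIP channel on only 1 WT array, so the other WT values were not clearly separated from background. A single probe, 1, read miR-669f-5p. For miR-466m-3p the CLIP level was -6.22, -3.72 and -5.59 in WT and -5.37, -6.13 and -4.51 in PS19, a relative difference of -1.01. The adjusted p in limma was 0.773 for miR-297a-5p and miR-669f-5p and 0.926 for miR-466m-3p. It tested the differences before the median was taken off. These were 1.47 for miR-297a-5p, 1.19 for miR-669f-5p and -0.16 for miR-466m-3p.

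In the shared scan, where a WT and a PS19 sample can be set side by side, the CLIP level was -1.11 on WT 2 and -3.34 on PS19 1 for miR-466f-3p. It was -0.62 and -2.57 for miR-467f, -1.04 and -3.05 for miR-466i-3p, and -0.99 and -3.04 for miR-669p-3p. With the scan as a random block in limma, 2 members passed as lower in PS19. The relative difference was -2.28 for miR-466f-3p (SE 0.45, adjusted p 0.0409 in limma) and -2.004 for miR-467f (SE 0.40, adjusted p 0.0431 in limma). SE and p belong to the differences before the median, 0.17 in this fit, was taken off. Over all 2356 RNAs this fit called 0.467% as higher and 0.297% as lower. By its construction, with an estimated correlation within a scan of 0.976, it draws chiefly on this pair of samples. Over the 6 arrays the relative differences were -0.72 for miR-466f-3p and -0.53 for miR-467f, with an SE of 1.04 each.

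**Figure D4:**
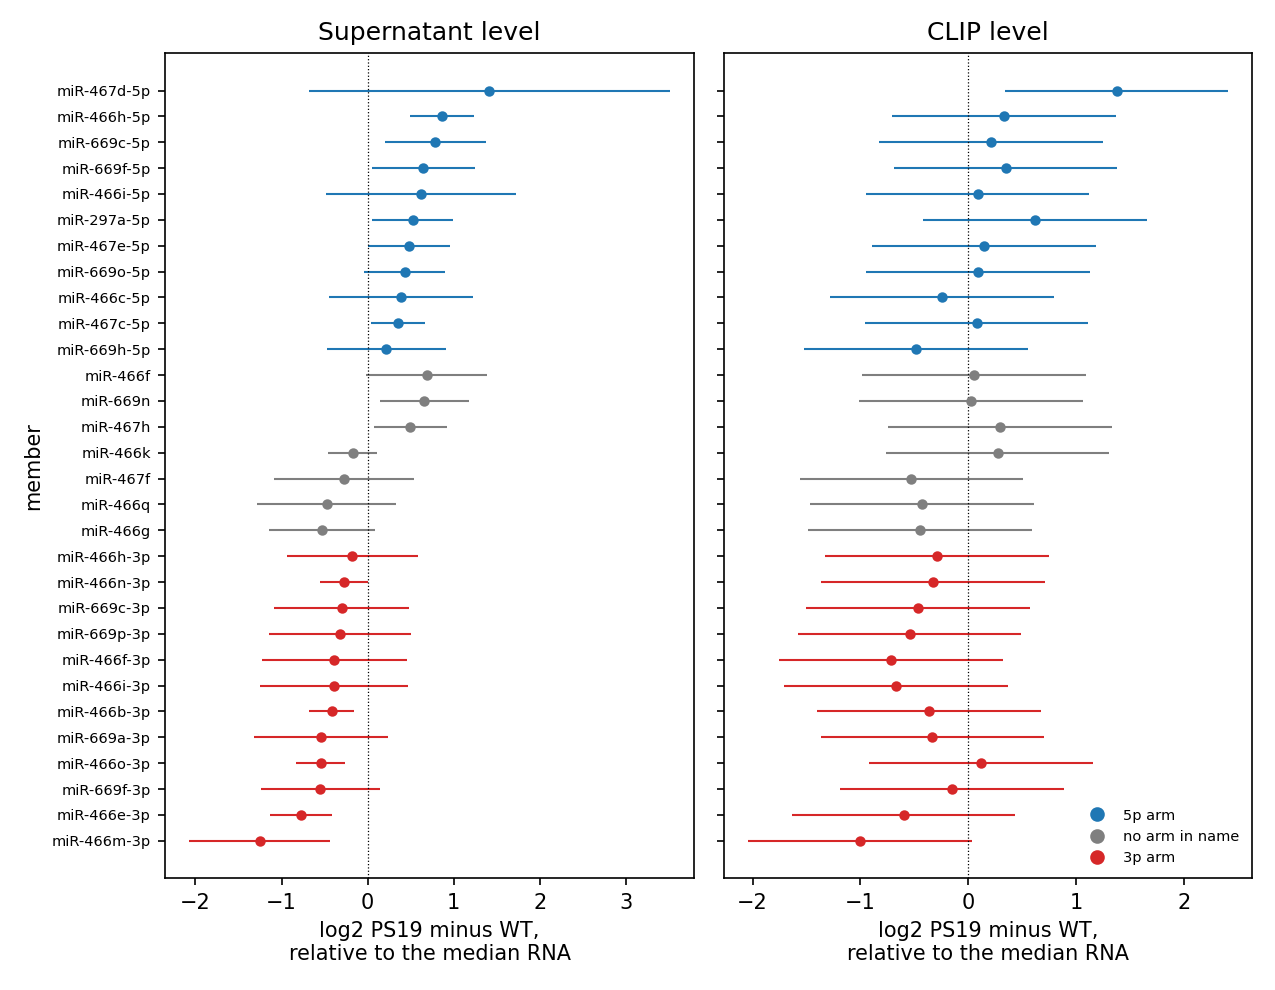
Points show the log2 difference of PS19 minus WT relative to the median tested RNA for the 30 members in the supernatant (left) and the CLIP level (right), with bars of 1 SE from limma and colours by arm. All 11 of the 5p members lie above 0 and all 12 of the 3p members below 0 in the supernatant, most of them within 2 SE of 0.

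The authors' deposited table gave the CLIP comparison for the same members as 14 higher and 16 lower in PS19, with log2 fold changes from -0.96 for miR-466m-3p to 1.42 for miR-467d-5p. The lowest p-value of a member in the authors' deposited table was 0.213, for miR-297a-5p, and its adjusted value was 0.999. No member was under 0.05 there. The median log2 fold change of the members in the authors' deposited table was -0.15, against 0.04 over all its RNAs.

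The members were measured with 114 probes, from 1 to 5 for each. Among the 26 members with several probes, 11 had the same sign of the ratio difference by each probe, and the largest spread between the probes of a member on an array was 0.66 to 2.997, with a median of 1.24. The table also named 1 hairpin precursor of these families, mmu-mir-466f-4. Its CLIP level was 0.44, -1.51 and -7.54 in WT and -1.11, -3.52 and -2.95 in PS19, and its relative difference was -0.51 with an SE of 1.04. It was highest on WT 1, whereas the CLIP level of miR-466f-3p was highest on WT 2.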

How the data were processed

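RNA of the pull-down (red) and of the supernatant (green) was hybridised to 6 arrays, per the labels' protocols. Per the file headers, the deposited scanner files hold intensity values and 0 or 1 flags from Agilent Feature Extraction 11.0.1.1, with background subtraction and dye normalisation applied to each array. The deposited value table holds log2 red intensity minus an offset per array that equalled the mean of 7 spike-in probes, found by setting it against the scanner files; its medians ran from -4.37 to -3.20. The authors' deposited sheet lists 2380 names without probes, each with its log2 fold change, p-value and adjusted value; the upstream steps of the value table and the sheet are not given in the sources used here. Each name was linked to the 1 set of probes, out of 557616, that gave its fold change within 1e-09 and its p-value within 1e-07, which also showed that the sheet is PS19 minus WT.

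Log2 processed signals were averaged over an RNA's probes. An RNA with an outlier spot had no value on that array. CLIP and supernatant levels were scaled to each array's 75th percentile over the 550 and 1703 RNAs well above background on all arrays; the ratio was centred on the array's median, with no dye swap. RNAs well above background on at least 3 arrays with at least 2 values per genotype were tested with limma 3.58.1 (R 4.3.3) and Benjamini-Hochberg adjustment over all of them. Members, lists, tests and the rule for named members (those with the strongest signal per family and the smallest p per comparison and direction) were chosen with earlier results of these data known. Members outside that rule are named where groups did not overlap, where the shared scan or the course over arrays is described, or for a small range, after their values were seen.

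On simulated data an 8-fold change was recovered at a rate of 27% for the CLIP level (simulated over 2238 RNAs), 92% for the ratio (over 3842) and 81% for the supernatant (over 3668); for a 2-fold change the rates were 2%, 5% and 1%, so differences of the size most members showed would seldom be called. The number of arrays limits the precision. The alternatives covered scaling, background correction, filters, variance model, blocks and left-out arrays; normexp was run on median signals with an offset of 50.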

Additional observations from a re-analysis of the deposited data

How the results depend on the processing

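The CLIP comparison called 0 members, and 2 with the scan as a random block, as given above; the other comparisons called 0 members under every alternative run. The members' median CLIP difference was -0.20, and it was 0.18 with no filter on dim RNAs, -0.62 within the shared scan, and between -0.34 and 0.18 with 1 array left out; the cause was not tested. Of 378 values of 28 named differences under the alternatives, 361 kept their sign and 17 reversed it. In the CLIP level normexp gave -0.0865 for miR-297a-5p and -0.0883 for miR-669f-5p, the scan block -0.0837 and -0.60, and the shared scan alone -0.12 and -0.66. With 1 array left out miR-467d-5p ran from -0.36 to 3.51 and miR-669f-5p from -0.14 to 0.75. In the ratio between genotypes normexp gave -0.11 for miR-466k and 0.25 for miR-669h-5p, and the shared scan -0.78 for miR-466k, -0.67 for miR-669f-3p and 0.0427 for miR-669h-5p; miR-669f-3p ran from -0.10 to 1.33 with 1 array left out. In the ratio within a genotype normexp gave -0.15 for miR-669h-5p and -0.0798 for miR-669n in WT and -0.0037 for miR-466k in PS19. Whether replicate numbers pair the samples was not settled. Deviations of same-numbered samples correlated at -0.08, -0.52 and 0.32 in the CLIP level, and those of WT 2 and PS19 1, which share a scan, at 0.64. The replicate block called 0 members in each comparison. Signal near background limits the CLIP level, where 9 of 30 members were well above background on all arrays. It also limits the supernatant level, where 19 of 30 were.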

Other observations

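Other mature microRNAs of the table with the same repeats were looked at after the members' values had been seen. Of 10 others that hold GUGUGU, 3 also had their lowest pull-down ratios on PS19 1 and WT 2: miR-1187 with ratios of 0.78, -0.28 and -0.02 in WT and -2.20, 0.85 and 0.07 in PS19, miR-3082-5p with 1.13, -0.45 and 0.19 in WT and -2.04, 1.05 and -0.08 in PS19, and miR-574-5p with 0.87, -0.37 and 0.34 in WT and -1.50, 0.49 and 0.18 in PS19. None of the 4 others that hold CACACA did, and their ranges over the arrays were 0.89 to 1.86, under the 3.09 to 3.57 of the members with that motif. These 4 were well above background in the CLIP channel on 3 to 5 arrays. On all 6 arrays miR-1187, miR-3082-5p and miR-574-5p were so, as was miR-3097-5p, which did not share the course.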
